A study of Mus musculus with 12 samples.

Results

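The subunits and close partners of the hypoxia-inducible factors (HIF) were followed through iron chelation and loss of the ferritin receptor NCOA4 in HT22 cells, an immortalized mouse hippocampal neuron line. The members were 7 genes taken by name from the 24343 uniquely named genes in the expression tables: Hif1a, Epas1, Hif3a, Arnt, Arnt2, Vhl and Cited2. They were taken by name, as genes whose products form or act on HIF. RNA-seq had been done on 12 libraries in 4 groups of 3 biological replicates. The groups were siControl (non-targeting siRNA, no DFO), siNCOA4 (siRNA against Ncoa4, no DFO), siControl+DFO and siNCOA4+DFO. Normal iron is used below to mean that no DFO was added, and iron in the cells was not measured in these libraries. The paper took raised iron regulatory protein IRP2 after NCOA4 depletion as a sign of functional iron deficiency. DFO is deferoxamine, an iron chelator, given at 100 µM for 24 h, and all 4 groups had been transfected with an siRNA by liposomes. All libraries came from this 1 cell line. The paper reported changed morphology and lower viability when Ncoa4 knockdown and DFO were combined, while neither alone affected viability. The part of lower viability in the differences of siNCOA4+DFO was not tested. The values are FPKM, read numbers scaled to transcript length and library size, so levels of different genes are compared per length. Each group comparison asks whether the RNA of these regulators differed with Ncoa4 knockdown, with iron deprivation, or with both.

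HIF is a pair of proteins: an alpha subunit (HIF-1α from Hif1a, HIF-2α from Epas1 or HIF-3α from Hif3a) and a beta partner (ARNT from Arnt or ARNT2 from Arnt2). In iron-replete, oxygenated cells, prolyl hydroxylases that need ferrous iron and oxygen mark the alpha subunit, the VHL protein binds it as the substrate-recognition part of a ubiquitin ligase, and the proteasome destroys it. When hydroxylation fails, the alpha subunit persists, joins its partner and recruits the coactivators CBP and p300, for which CITED2 competes. Much of this control acts on protein, and the libraries measured RNA.

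Ncoa4 itself was checked first. It had 6.02 to 6.46 FPKM in siControl and 7.52 to 8.70 FPKM in siControl+DFO, against 0.770 to 0.952 FPKM in siNCOA4 and 0.850 to 1.57 FPKM in siNCOA4+DFO, so all 6 knockdown libraries matched their labels. The relative depth of the libraries, read from the steps between low FPKM values, ranged from 0.928 to 1.41 with siControl replicate 1 set to 1, and the siNCOA4 group held the deepest libraries, from 1.26 to 1.41. Of 12 neuron markers, Tubb3, Dlg4, Eno2 and Camk2a were detected in every library, Camk2a at only 0.0678 to 1.42 FPKM. Syp was listed at 0 in 2 libraries and Slc17a7 in 5. Rbfox3, Map2, Snap25, Nefl, Nefm and Grin1 were listed at 0 in 10 or 11 of the 12. The 6 mesenchymal markers (Vim, Col1a1, Col1a2, Fn1, Thy1, Pdgfra) were all expressed. Marker sums moved with the groups. Mesenchymal sums were 3081 to 3560 FPKM in siControl, 2282 to 2491 in siNCOA4, 2000 to 2116 in siControl+DFO and 1805 to 1937 in siNCOA4+DFO. The neuron sum was 23.0 to 28.8, 19.8 to 23.8, 39.5 to 45.5 and 30.5 to 36.8 FPKM in the same order. It rested on few genes: Eno2 reached 24.0 FPKM, Dlg4 15.1 and Tubb3 13.6. Neuron markers with a group mean of at least 0.5 FPKM numbered 4 in each group at normal iron and 3 in each DFO group. The astrocyte sum, nearly all Slc1a3, was 36.2 to 45.7, 21.7 to 26.5, 2.78 to 4.81 and 4.58 to 12.9 FPKM, with Aqp4 at 0 in 11 libraries. The microglia sum, mostly Tmem119, was 10.1 to 11.8, 3.79 to 5.67, 0.985 to 1.68 and 0.457 to 2.01 FPKM, with P2ry12 at 0 in all 12, and the oligodendrocyte sum stayed at or below 1.47 FPKM in every library, with Mag at 0 in all 12. Their part in the members' differences was not tested. The cells were 1 line, so the sums describe marker RNA and are not shares of brain cell types. In bulk RNA, fewer cells with a marker and less of its RNA per cell cannot be told apart.

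The members lie on 6 chromosomes of the mouse genome (RefSeq, GRCm38.p6): Hif1a at chr12:73901324-73947554, Epas1 at chr17:86753864-86833410, Arnt at chr3:95434367-95497240, Vhl at chr6:113623994-113631634 and Cited2 at chr10:17723228-17725674 on the plus strand, and Hif3a at chr7:17030993-17062427 and Arnt2 at chr7:84246274-84411741 on the minus strand. Cited2 is the most compact, with at most 2 exons in its transcripts, and Arnt has up to 22. RefSeq promoter windows were found for 6 of the 7, Epas1 being the other. The 250 bases before the start are printed for the 4 members with the clearest group differences, since HIF binds DNA at the core ACGTG or GCGTG. Capitals mark each of these cores on either strand, read on the opposite strand as CACGT or CACGC, and the palindrome CACGTG holds ACGTG on both strands and is also the E-box letter pattern. The windows are chr12:73907617-73907866 (Hif1a), chr10:17722978-17723227 (Cited2), chr3:95434140-95434389 (Arnt) and chr6:113623744-113623993 (Vhl), all on the plus strand and written 5′ to 3′.
Hif1a: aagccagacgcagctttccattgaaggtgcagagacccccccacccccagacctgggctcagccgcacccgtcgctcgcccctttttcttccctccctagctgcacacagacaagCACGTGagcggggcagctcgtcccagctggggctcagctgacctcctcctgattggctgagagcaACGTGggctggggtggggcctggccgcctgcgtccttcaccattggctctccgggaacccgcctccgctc
Cited2: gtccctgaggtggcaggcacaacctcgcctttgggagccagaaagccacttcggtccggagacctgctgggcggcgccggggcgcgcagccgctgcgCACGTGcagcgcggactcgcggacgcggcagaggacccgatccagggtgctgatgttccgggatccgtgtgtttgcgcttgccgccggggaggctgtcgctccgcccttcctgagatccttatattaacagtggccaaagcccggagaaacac
Arnt: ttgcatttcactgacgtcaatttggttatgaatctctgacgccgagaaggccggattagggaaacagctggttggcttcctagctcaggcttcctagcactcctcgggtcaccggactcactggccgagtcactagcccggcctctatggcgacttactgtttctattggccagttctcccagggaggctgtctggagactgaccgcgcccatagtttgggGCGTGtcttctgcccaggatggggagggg
Vhl: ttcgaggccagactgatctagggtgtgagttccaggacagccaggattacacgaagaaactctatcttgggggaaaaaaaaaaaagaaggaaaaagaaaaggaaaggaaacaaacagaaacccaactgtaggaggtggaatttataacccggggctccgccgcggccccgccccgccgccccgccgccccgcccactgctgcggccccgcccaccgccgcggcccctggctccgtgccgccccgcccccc

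Both Hif1a and Cited2 held the palindrome CACGTG, 135 to 130 bases before the start in Hif1a and 153 to 148 bases before it in Cited2. Hif1a held a further ACGTG 70 to 66 bases before its start, and Arnt held GCGTG 29 to 25 bases before its start. The Vhl and Arnt2 windows held neither core, and Hif3a held GCGTG and CACGC. In all, 4 of 6 member windows had ACGTG or GCGTG, against 38.6% of the 32851 promoter windows in the table, and 2 of 6 had CACGTG, against 6.02%. The RefSeq starts used for Hif1a, Arnt and Arnt2 lie inside the annotated spans of these genes. The bases just after the Hif1a start were in no GENCODE transcript of Hif1a, whereas those of the other 5 windows were. A match of letters is a description and does not show binding.

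Hif1a, the oxygen-labile subunit found in most cell types, was the only alpha subunit expressed at a level that could be tested. Its 3 siControl libraries had 50.1, 46.8 and 46.9 FPKM (47.9 ± 1.85, mean ± SD), and its siNCOA4 libraries had 35.7, 39.2 and 41.1 FPKM (38.6 ± 2.73). With DFO the siControl libraries had 72.9, 68.4 and 73.4 FPKM (71.6 ± 2.74) and the siNCOA4 libraries 54.1, 53.5 and 54.2 FPKM (53.9 ± 0.404). The 4 groups did not overlap, in the order siNCOA4, siControl, siNCOA4+DFO, siControl+DFO. In siControl, Hif1a ranked 1511 among 13865 genes listed above 0 in that group, and in siControl+DFO it ranked 1034 among 15225. DFO raised Hif1a by 0.58 on the log2 scale in siControl cells (SE 0.07, adjusted p = 2.00e-05, limma with Benjamini-Hochberg adjustment over all 11924 genes tested), a ratio of means of 1.49. In knockdown cells DFO raised it by 0.48 (adjusted p = 1.38e-04), a ratio of 1.40. Ncoa4 knockdown lowered Hif1a with and without DFO. The log2 fold change was -0.31 at normal iron (SE 0.07, adjusted p = 0.0128) and -0.41 under DFO (adjusted p = 0.00256). The call at normal iron rested on siNCOA4 replicate 1, the lowest of the 12 libraries: without it the change was -0.26 (adjusted p = 0.0535). Cells with both treatments sat slightly above siControl, by 0.17 (95% interval 0.02 to 0.32, adjusted p = 0.057), which did not pass but did so without siControl replicate 1 (adjusted p = 0.042) or without siNCOA4 replicate 1 (adjusted p = 0.0472). Of the 75-base windows of Hif1a transcripts, 4.46% also lie in transcripts of the overlapping genes Gm15283, which is antisense, and Gm49321, and whether counting used the strand is not given in the sources used here.

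**Figure D1:**
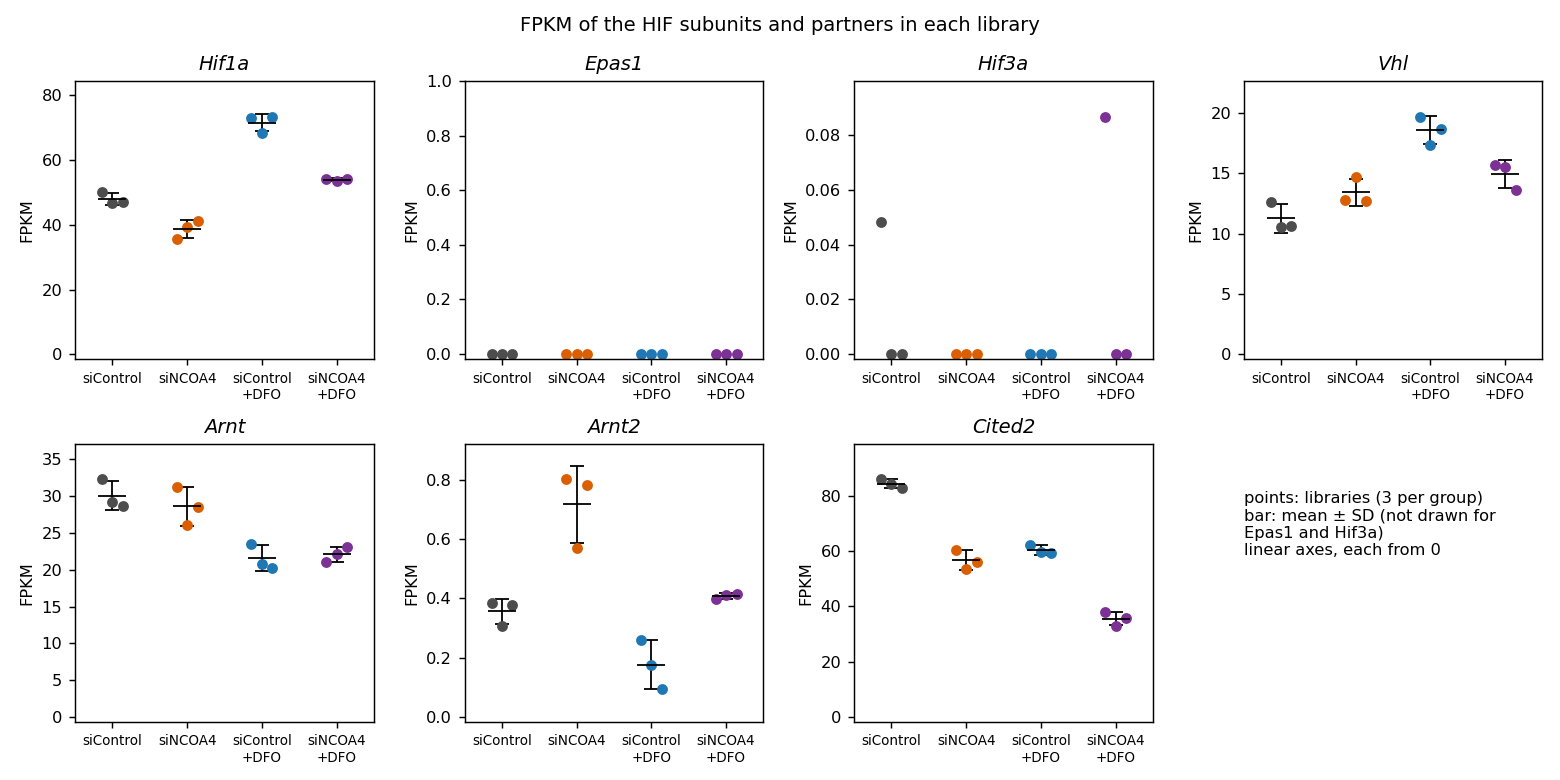
FPKM (linear vertical axes) of the 7 members in each of the 12 libraries, by group, with points for libraries and bars for the mean ± SD of 3 libraries where drawn. Hif1a separates the 4 groups, from 35.7 to 41.1 FPKM in siNCOA4 up to 68.4 to 73.4 FPKM in siControl+DFO, Cited2 falls from 82.6 to 85.8 FPKM in siControl to 33.0 to 37.8 FPKM in siNCOA4+DFO, and Epas1 is listed at 0 throughout.

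The other alpha subunits were hardly seen. Epas1, whose product HIF-2α is best known from endothelium, kidney and other tissues, was listed at 0 in all 12 libraries, DFO-treated ones included. Hif3a, whose splice forms include inhibitors of HIF, was listed at 0 in 10 libraries, at 0.0482 FPKM in siControl replicate 1 and at 0.0867 FPKM in siNCOA4+DFO replicate 1. No fold change was computed for either. No 75-base window of an Epas1 or Hif3a transcript occurred in a transcript of another gene. A value near 0 in these tables is still not proof of absence: Gapdh, a glycolytic enzyme gene used by every cell, was listed at 0.364 to 33.2 FPKM, with a median of 1.34, while Actb was at 929 to 2283 FPKM and Tbp at 16.3 to 22.5 FPKM.

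Arnt, the general beta partner, differed with DFO and not detectably with the knockdown. It was at 32.3, 29.3 and 28.7 FPKM in siControl (30.1 ± 1.94) and at 31.3, 26.0 and 28.5 FPKM in siNCOA4 (28.6 ± 2.62). With DFO it was at 23.5, 20.8 and 20.2 FPKM in siControl cells (21.5 ± 1.76) and at 21.1, 22.2 and 23.1 FPKM in knockdown cells (22.1 ± 1.03). All 6 DFO libraries lay below all 6 libraries at normal iron, and the siRNA groups overlapped at either iron state. DFO lowered Arnt, with a log2 fold change of -0.48 in siControl cells (SE 0.09, adjusted p = 8.24e-04), -0.37 in knockdown cells (adjusted p = 0.00646) and -0.44 for both treatments relative to siControl (adjusted p = 0.0017). The log2 difference between siNCOA4 and siControl was -0.07, with a 95% interval of -0.27 to 0.13 (adjusted p = 0.667), and under DFO it was 0.04, from -0.16 to 0.24 (adjusted p = 0.811). A knockdown effect within these bounds was not detectable.

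Arnt2, the beta partner that is prominent in neurons, was present at trace levels. Its libraries had 0.386, 0.308 and 0.377 FPKM in siControl and 0.801, 0.568 and 0.781 FPKM in siNCOA4. Under DFO they had 0.260, 0.177 and 0.0937 FPKM with siControl and 0.397, 0.413 and 0.415 FPKM with siNCOA4. The groups did not overlap, siNCOA4 being highest and siControl+DFO lowest. It entered the test through the 3 siNCOA4 libraries alone, the ones at or above 0.5 FPKM, so a difference was built into its selection, and these libraries were also the deepest. In limma the log2 differences were 0.83 for siNCOA4 against siControl, -0.76 for DFO and 0.92 for knockdown under DFO. They are given without a test for that reason. With all genes above 0 kept in the test, the siNCOA4 difference was again 0.83 and did not pass (adjusted p = 0.183). Between siControl+DFO and siNCOA4, its lowest and highest groups, the log2 difference was -1.59, given without a test because siNCOA4 had brought the gene into the fit. Arnt exceeded Arnt2 by a mean FPKM ratio of 84.9 ± 9.55 in siControl and 40.5 ± 4.79 in siNCOA4, and of 142 ± 66.0 in siControl+DFO and 54.2 ± 1.34 in siNCOA4+DFO, the siControl+DFO libraries being widely spread, from 90.6 to 216.

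Vhl, the substrate-binding subunit of the ligase that removes hydroxylated HIF alpha, rose with DFO. It had 12.6, 10.6 and 10.6 FPKM in siControl (11.3 ± 1.19) and 12.8, 14.7 and 12.7 FPKM in siNCOA4 (13.4 ± 1.14). With DFO it was at 19.7, 17.3 and 18.7 FPKM in siControl cells (18.6 ± 1.18) and at 15.7, 15.5 and 13.6 FPKM in knockdown cells (14.9 ± 1.14). The siControl+DFO libraries stood above all the others, siControl lay lowest by a narrow gap, and the knockdown groups overlapped. DFO raised Vhl by 0.72 on the log2 scale in siControl cells (SE 0.11, adjusted p = 1.16e-04), and both treatments raised it by 0.41 relative to siControl (adjusted p = 0.00707). Within knockdown cells the DFO difference was 0.16 (95% interval -0.08 to 0.39, adjusted p = 0.262). The knockdown differences had opposite signs, 0.25 at normal iron (adjusted p = 0.156) and -0.31 under DFO (adjusted p = 0.0639), and neither passed, although the second did without siControl replicate 1 (adjusted p = 0.0458). The test of the difference between these effects is given with the comparisons.

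Cited2, a transcriptional coregulator that competes with HIF for CBP and p300, was the most abundant member in siControl and fell in every comparison with it. The siControl libraries had 85.8, 84.3 and 82.6 FPKM (84.3 ± 1.61), rank 769 of 13865, and the siNCOA4 libraries 60.4, 53.6 and 56.0 FPKM (56.7 ± 3.47). With DFO it was at 62.3, 59.5 and 59.1 FPKM in siControl cells (60.3 ± 1.71), level with siNCOA4, and at 37.8, 33.0 and 35.8 FPKM with both (35.5 ± 2.40), where it ranked 2175 of 15627. The single treatments overlapped each other and lay clear of the other groups. The log2 fold change was -0.57 with siNCOA4 (SE 0.07, adjusted p = 3.36e-04), -0.48 with DFO (adjusted p = 1.08e-04) and -1.24 with both (adjusted p = 7.40e-08). Against DFO alone the combination was lower on the log2 scale, at -0.76 (adjusted p = 7.97e-05), as it was against the knockdown alone, at -0.67 (adjusted p = 1.32e-05). The difference between siControl+DFO and siNCOA4 was 0.09, with a 95% interval of -0.06 to 0.24 (adjusted p = 0.3).

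Read by comparison, the shares of genes called over the whole table set the scale, and comparisons with siControl share its 3 libraries. With siNCOA4, 2 of the 7 members fell (Hif1a and Cited2), where 11.7% of all tested genes passed. Arnt and Vhl did not pass, Arnt2 is not read, and Epas1 and Hif3a were not tested. The ranges of 4 members did not overlap (32.6% of genes). With DFO in siControl cells, Hif1a and Vhl rose and Arnt and Cited2 fell, so that 4 passed where 53.4% of genes did, and the ranges of 5 did not overlap (60.7% of genes). With both treatments relative to siControl, Vhl rose and Arnt and Cited2 fell, where 48.8% of genes passed, and the ranges of 5 did not overlap (54.8%). The combination relative to DFO alone lowered Hif1a and Cited2, where 16.5% of genes passed, with ranges of 4 members apart (34.8%). Relative to the knockdown alone it raised Hif1a and lowered Arnt and Cited2, where 42.7% passed, again with 4 ranges apart (52.6%). Between the single treatments, siControl+DFO was higher than siNCOA4 in Hif1a, by 0.89 (adjusted p = 5.71e-07), and in Vhl, by 0.47 (adjusted p = 0.0026), and lower in Arnt, at -0.41 (adjusted p = 0.00252). The Arnt2 difference is not read there, since its high group chose it for the test. In that comparison 54.1% of genes passed, and the ranges of 4 members, against 62.8% of genes, did not overlap. Every count of ranges in these comparisons includes Arnt2, which the filter kept only through its high siNCOA4 libraries. The range counts are therefore a description and are not read as a result about the members. Relative to siControl, a change over 2-fold was found in 1 member, Cited2 with both treatments, where 15.2% of genes passed at that size, against 1.78% for siNCOA4 and 18.8% for DFO.

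The interaction, the knockdown difference under DFO minus the knockdown difference at normal iron, was past an adjusted p of 0.05 in 0 of the 5 tested members in limma and in 2.1% of all genes. Arnt2 is among the 5, and its test is not read, since its high group brought it into the fit. An unadjusted p below 0.05 was found for 1 member, Vhl, with an interaction of -0.56 on the log2 scale (95% interval -0.89 to -0.24). Its adjusted p was 0.0749. For Hif1a it was -0.10 (from -0.31 to 0.12), for Arnt 0.11 (from -0.17 to 0.40) and for Cited2 -0.19 (from -0.41 to 0.03). These intervals include 0 and also differences of up to 0.41, so the effects of knockdown and DFO on these 3 genes were neither shown to depend on each other nor shown to be independent.

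**Figure D2:**
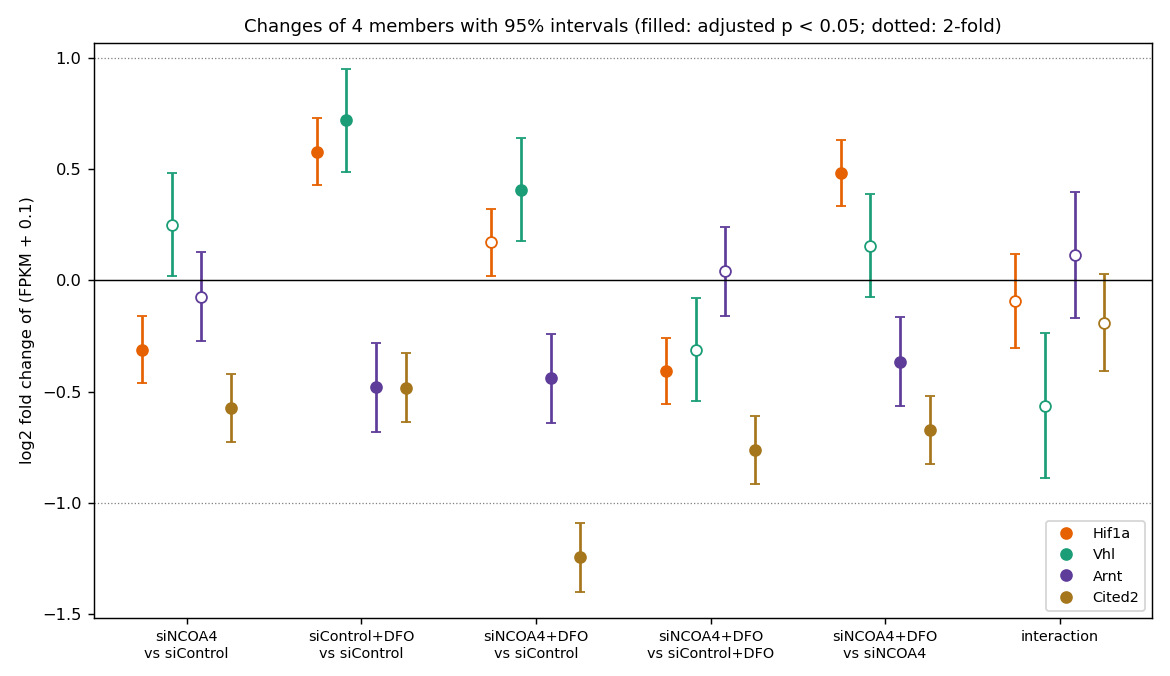
Log2 fold changes of (FPKM + 0.1), vertical axis, of Hif1a, Vhl, Arnt and Cited2 in 5 group comparisons and the interaction, with 95% intervals from limma, filled points where the adjusted p was below 0.05 and dotted lines at a 2-fold change. Cited2 lies below 0 in each comparison shown, reaching -1.24 with both treatments, while Hif1a is lowered by the knockdown and raised by DFO.

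Because subunits work as pairs, the ratio of FPKM between members was also computed in each library, as a description without a test. Hif1a to Arnt was 1.55, 1.60 and 1.64 in siControl and 1.14, 1.50 and 1.44 in siNCOA4. It was 3.10, 3.28 and 3.62 in siControl+DFO and 2.57, 2.41 and 2.35 in siNCOA4+DFO. The 4 groups did not overlap, and the mean rose from 1.60 ± 0.0433 to 3.33 ± 0.268 with DFO as Hif1a RNA went up and Arnt RNA down. Cited2 to Hif1a stood at 1.76 ± 0.0437 in siControl, 1.48 ± 0.189 in siNCOA4, 0.843 ± 0.0337 in siControl+DFO and 0.659 ± 0.0403 in siNCOA4+DFO, so that RNA of the competitor exceeded that of the alpha subunit in all 6 libraries at normal iron and in none of the 6 with DFO. Hif1a to Vhl moved less: it was 4.27 ± 0.27 in siControl, 3.86 ± 0.135 in siControl+DFO and 3.62 ± 0.304 in siNCOA4+DFO, and lowest at 2.89 ± 0.295 in siNCOA4, whose libraries (2.66 to 3.23) lay below all others.

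**Figure D3:**
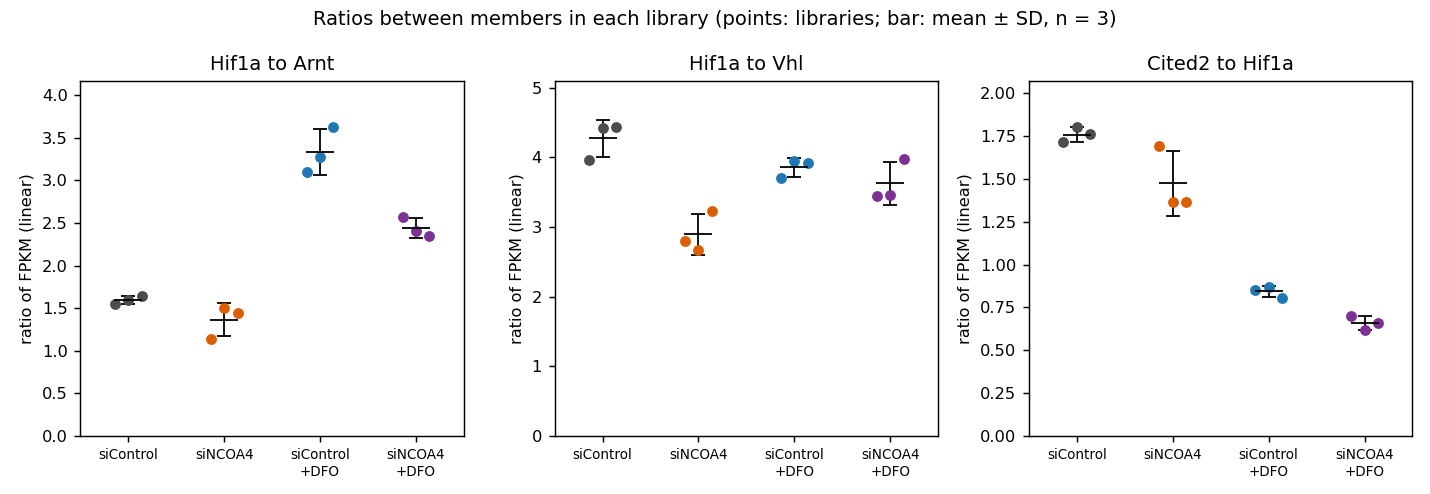
Ratios of FPKM between members in each library (linear vertical axes from 0), by group, with points for libraries and bars for the mean ± SD of 3 libraries. Hif1a to Arnt spans 1.14 to 1.64 at normal iron and 2.35 to 3.62 with DFO, and Cited2 to Hif1a lies above 1 at normal iron and below it with DFO.

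Around the members stand the enzymes and proteins that act on them. With DFO in siControl cells 53.4% of all tested genes passed and 27.7% were higher, and the counts of these lists stand beside those shares. Of the 5 HIF hydroxylases 3 were tested, and 2 passed. With DFO in siControl cells Egln1, the main prolyl hydroxylase of HIF-1α, rose from 28.2 ± 4.62 to 50.8 ± 4.44 FPKM (log2 0.86, adjusted p = 1.54e-04), Egln2 fell from 23.9 ± 1.06 to 14.5 ± 1.30 FPKM (log2 -0.72, adjusted p = 1.03e-04), and Hif1an, the asparaginyl hydroxylase, was at 15.3 ± 1.06 and 14.6 ± 1.23 FPKM without passing. Egln3, also known as a hypoxia-induced gene, was listed at 0 in 11 libraries and P4htm in 9. Among 14 genes of the VHL ligase and of HIF alpha turnover, 5 rose and 2 fell with DFO, a share near that of all genes, with a median log2 change of 0.25 against -0.01 for all genes. The largest rises were in Siah1b (1.43, adjusted p = 1.49e-06), Siah2 (1.27, adjusted p = 4.70e-06), Fbxw7 (0.81, adjusted p = 2.40e-04) and Siah1a (0.69, adjusted p = 0.00316). SIAH proteins are ubiquitin ligases that target prolyl hydroxylases, and FBXW7 takes part in turnover of HIF-1α that does not need oxygen. Siah1a and Siah1b are near-identical copies among which reads could be split, so their separate values are uncertain. Under DFO the knockdown lowered Siah1b (log2 -0.48, adjusted p = 0.0217) and raised Fbxw7 (log2 0.45, adjusted p = 0.035), among 3 genes lower and 1 higher, where 16.5% of all genes passed and 10.2% were lower. In the interaction test 1 of the 14 passed, against 2.1% of all genes, the chaperone gene Hsp90aa1, named after its value was seen, at -0.62 (adjusted p = 0.0197).

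Of 8 coregulators 6 were tested, and with DFO 2 rose and 2 fell, beside the 53.4% of all genes that passed: Ruvbl2 at 0.61 (adjusted p = 0.0115) and Ncoa1 at 0.46 (adjusted p = 0.00192) on the log2 scale, and Ruvbl1 at -0.57 (adjusted p = 4.13e-04) and Ncoa2 at -0.32 (adjusted p = 0.0226). RUVBL1 and RUVBL2 are paired ATPases of chromatin complexes, and NCOA1 and NCOA2 are steroid receptor coactivators, unrelated to the ferritin receptor despite the name of NCOA4. Under DFO, 2 of the 6 were lower with knockdown and 0 higher, where 10.2% of all genes were lower. These were Crebbp and Ep300, which encode the CBP and p300 that CITED2 binds. Their log2 changes were -0.47 (adjusted p = 0.0113) and -0.39 (adjusted p = 0.0153). At normal iron the knockdown also lowered Crebbp, at -0.51 (adjusted p = 0.00948), and Ep300 was at -0.24 without passing (adjusted p = 0.129). In the interaction test 0 of the 6 coregulators passed. Cited1 and Cited4, the relatives of Cited2, did not exceed 0.413 and 0.318 FPKM, so that Cited2 was the 1 family member tested. Of 11 other bHLH-PAS genes, the family to which the HIF subunits belong, 5 were tested and 1 rose with DFO, where 27.7% of all genes rose: Arntl, the circadian partner of CLOCK and a relative of Arnt, by 1.56 (adjusted p = 1.23e-05), where Arnt itself fell. Clock was lower with knockdown at normal iron, with a log2 change of -0.65 (adjusted p = 0.00667), where 7.21% of all genes were lower. Under DFO the knockdown also lowered Clock, by a log2 change of -0.52 (adjusted p = 0.0156), where 10.2% of all genes were lower. Arntl was higher with knockdown at normal iron, at 0.68 (adjusted p = 0.0263).

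Genes known as HIF targets were read as a further group. Of 30, 28 were tested. With DFO in siControl cells 25 rose and 1 fell, where 27.7% of all genes rose, with a median log2 change of 1.69 against -0.01 for all genes. Ero1l, an oxidase of protein folding, rose by 3.94 (adjusted p = 6.34e-10), from 12.3 ± 2.11 to 189 ± 14.3 FPKM. Ndrg1, a stress-response gene, rose by 3.16 (adjusted p = 1.24e-08) and Hmox1, heme oxygenase, by 3.06 (adjusted p = 1.23e-08). The gene that fell was Lox, a collagen cross-linking oxidase, at -1.38 (adjusted p = 1.55e-05), named after its value was seen. Knockdown alone left 8 of the 28 lower and 1 higher, where 7.21% of genes were lower. The higher gene was Ero1l, by 0.88 (adjusted p = 7.40e-04). Under DFO the knockdown left 12 lower and 16 not passing, with a median log2 change of -0.35, where 10.2% of genes were lower. Pfkfb3, a glycolytic regulator, changed most, at -1.40 (95% interval -2.22 to -0.58, adjusted p = 0.025). Its level was low, at 3.16 ± 0.263 FPKM in siControl+DFO and 1.21 ± 0.501 FPKM in siNCOA4+DFO. Ndrg1 followed at -1.17 (adjusted p = 5.93e-04), and went from 339 ± 12.5 FPKM in siControl+DFO to 152 ± 25.7 FPKM in siNCOA4+DFO. In the interaction test 2 of the 28 passed, against 2.1% of all genes, both with negative values. These were Ddit4, a stress-response gene named after its value was seen, at -0.87 (adjusted p = 0.0271) and Ero1l at -0.84 (adjusted p = 0.0322). A negative value means that the knockdown difference was lower under DFO than at normal iron. For Ero1l that difference was 0.88 at normal iron and 0.04 under DFO, where it did not pass. For DFO in siControl cells, knockdown at normal iron and knockdown under DFO, Hif1a had log2 fold changes of 0.58, -0.31 and -0.41. A link between these and the changes of the targets was not tested, and the libraries did not measure HIF protein. The target list is not a readout of HIF alone, since Tfrc and Hmox1 are also known to answer to iron and heme through other regulators.

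**Figure D4:**
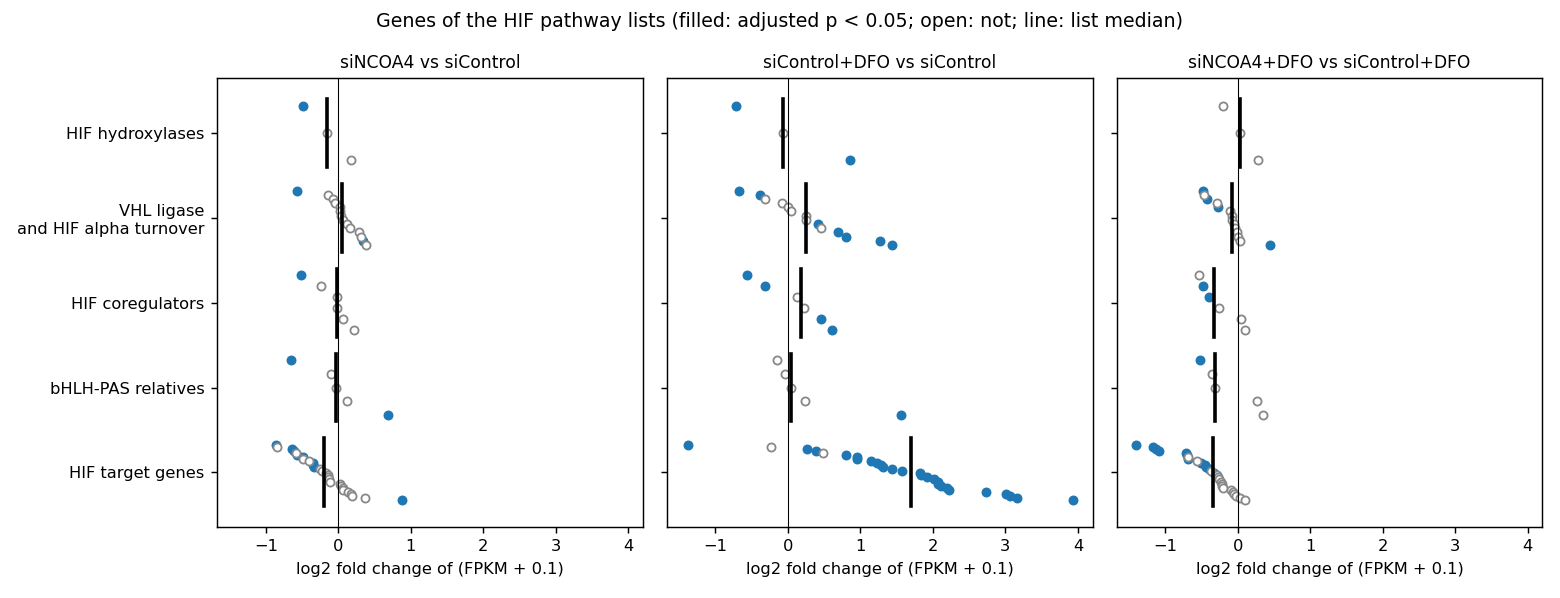
Log2 fold changes of (FPKM + 0.1), horizontal axis, of each tested gene in 5 lists of the HIF pathway (rows) in 3 comparisons (panels), with filled points where the adjusted p was below 0.05, open points elsewhere and a line at the list median. The HIF target genes have a median of 1.69 with DFO, and of -0.35 when knockdown is compared within DFO, while the other lists hold changes in both directions with DFO except the bHLH-PAS relatives, where 1 gene passed.

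The genes whose pattern over the 12 libraries was most like that of each member were named by Pearson's r of log2(FPKM + 0.1), over genes with a mean of at least 1 FPKM. The 12 points share 4 groups, so r follows the group differences, and it is given as a description. For Hif1a they were Eaf1 (r = 0.983), the clock repressor gene Nr1d1 (0.983) and the glycolytic gene Pgk1 (0.982), each of which had the same order of group means as Hif1a. Nr1d1 spanned more, with means of 1.46 FPKM in siNCOA4, 5.12 in siControl, 10.1 in siNCOA4+DFO and 38.7 in siControl+DFO. For Arnt they were Ptov1 (0.978), Hspb6 (0.97) and Grb10 (0.965), and Ptov1 had 25.9 FPKM in siControl and 25.8 in siNCOA4 against 11.9 and 13.0 with DFO. For Cited2 they were Trim28 (0.981), the focal adhesion gene Tns3 (0.976) and Flii (0.975). Tns3 had 24.6 FPKM in siControl, 11.5 in siNCOA4, 14.9 in siControl+DFO and 6.76 in siNCOA4+DFO. For Vhl the closest were Zfp410 (0.956), Polq (0.952) and Coq10b (0.951), lower values than for Hif1a or Cited2, and for Arnt2 they were Dapp1 (0.961), Ccdc90b (0.954) and Aktip (0.946).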

How the data were processed

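RNA had been prepared from HT22 cells with a stranded total RNA kit and sequenced as 75-base paired reads. The submitters' processing notes name Trimmomatic 0.33, FastQC, HISAT2 2.1.0, featureCounts, edgeR and the build mm10, and the program and annotation behind the FPKM are not given in the sources used here. The authors deposited 1 table of FPKM per library, with 24347 entries, of which 4 that share names were left out. Here log2(FPKM + 0.1) of the 11924 genes with at least 0.5 FPKM in at least 3 libraries was tested with limma 3.58.1 (R 4.3.3), with empirical Bayes, a mean-variance trend and all 12 libraries in 1 model of 4 groups. P-values were two-sided and adjusted by the Benjamini-Hochberg method over all genes tested, and fold changes on this scale understate those of low genes. The procedure was tested on simulated data. Total counts are not in FPKM tables, so depth is relative, and no counting interval is given. Replicates are biological replicates per the labels, which do not say how they were separated, so p-values cover the spread between these samples. No pairing by replicate number was seen. Same-numbered libraries of different groups had correlations of their deviations from -0.127 to 0.116, over 0.1 in 2 of 18 pairs. Those with different numbers had -0.1745 to 0.1617, over 0.1 in 4 of 36. This check cannot show that the libraries were unpaired.

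The members and lists were chosen with earlier results of these data known. Named were the 7 members, up to 4 genes of each list with the largest passing change with DFO and up to 2 with knockdown under DFO, the 3 genes most like each tested member, and Ncoa4; 1 gene that this rule names is not reported here. Promoters and loci came from RefSeq GRCm38.p6, which is the mm10 assembly. Alternatives were other pseudocounts (1 and 0.01), filters (none, or at least 2 FPKM) and scalings (median-of-ratios, quantile), the replicate block, the compared groups alone, no trend, and each library left out.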

Additional observations from a re-analysis of the deposited data

How the results depend on the processing

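Over the alternatives, most member results kept their direction and their side of the threshold: 393 of those with 1 library left out and 292 of the others. With 1 library left out, 2 turned their sign, 3 gained a call and 1 lost it. Among the other alternatives 3 turned their sign, 5 gained a call and 0 lost it. The kept results include differences that had not passed and still did not, so these counts do not measure the stability of calls alone. The number of members past an adjusted p of 0.05 for siNCOA4 against siControl was 2, and between 1 and 2 with 1 library left out, being 1 without siNCOA4 replicate 1, where Hif1a lost its call. Signs turned only in differences that had not passed. Quantile normalization gave -0.61 for Arnt2 with both treatments against siControl and -0.072 for Cited2 in siControl+DFO against siNCOA4. With 1 library left out, the knockdown difference of Arnt under DFO ranged from -0.0033 to 0.105 and the interaction of Arnt2 from -0.14 to 0.305, both lowest without siControl+DFO replicate 3, and a pseudocount of 1 gave -0.076 for the latter. The filter kept Arnt2 only through the siNCOA4 libraries where it is high, so that its selection built in a difference. Without the variance trend, Arnt2 gained calls for siNCOA4, for DFO, for knockdown under DFO and for DFO in knockdown cells. After quantile normalization it also gained a call for DFO. These calls are not read as changes, and the cause was not tested. A fit with a replicate block, as a pairing by number, left 2 members past the threshold for siNCOA4, 4 for DFO, 3 for both, 2 under DFO and 0 in the interaction, and over all genes 171 interactions against 250. The interaction count was 165 after quantile normalization and 164 without the trend. A minimum of 2 FPKM removed Arnt2 from the test, and leaving out a siNCOA4 library did the same, so neither gave a value for it. The interaction cannot be fitted on the compared groups alone. FPKM hold no counts, so the depth behind the low values of Arnt2, Hif3a and Epas1 limits what can be said of them.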
